A study of Mus musculus with 12 samples.

Results

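The 12 uteri of the series were ordered by a proliferation score, and the 6 uteri with the highest scores were set against the 6 with the lowest, whatever their genotype. The score of an array was the mean log2 value of proliferation genes in the deposited matrix, each gene taken at its brightest probe. Of the 6 genes named for the score, Top2a, Cdk1, Mcm4 and Birc5 had a probe, while Mki67 and Ccnb1 were not named in the probe annotation used here and were not analysed, so the score rests on 4 genes. The arrays were therefore chosen by measured values. All differences between high and low arrays, and all correlations with the score, are descriptions and carry no test.

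RNA came from uteri of 2-month-old female C57BL/6 mice and was hybridised to Illumina bead arrays, 1 array per uterus. The series holds 3 uteri each with Trp53 ablated (Trp53 cKO), with both Trp53 and Cdh1 ablated (double cKO), with Cdh1 ablated (Cdh1 cKO) and of the wild type (control). Trp53 encodes the tumour suppressor p53, and Cdh1 encodes E-cadherin, the adhesion protein of epithelial junctions. The sources used here do not state the recombinase or the cells in which it acts, which exons were deleted, the estrous stage of the mice, or which chip carried an array. The labels do not say whether uteri came from separate litters, so that the p-values below measure the spread among these uteri.

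Dividing cells pass through a fixed order of steps. E2F transcription factors turn on the genes of DNA replication before S phase, and the MYB and FOXM1 complexes turn on the genes of mitosis later. In the uterus of cycling mice, ovarian estrogen drives division of the luminal and glandular epithelium, and progesterone moves division from the epithelium to the stroma.

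On the log2 scale, the high arrays were double cKO replicate 2 with a score of 10.96, control replicate 3 with 10.94, Trp53 cKO replicates 1, 3 and 2 with 10.89, 10.86 and 10.63, and double cKO replicate 3 with 10.51. The low arrays were Cdh1 cKO replicate 2 with 10.20, control replicates 2 and 1 with 9.78 and 9.62, Cdh1 cKO replicates 3 and 1 with 9.03 and 8.76, and double cKO replicate 1 with 8.55. The high arrays lay close together, whereas the low arrays were spread widely. The score averaged 10.80 ± 0.18 in the high arrays and 9.32 ± 0.64 in the low arrays (SD, n = 6 each). The array just inside the high group, at 10.51, and the array just outside it, at 10.20, lay nearer to each other than the highest and lowest of the low arrays.

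The division split the double cKO and the control uteri, but not the Trp53 cKO or the Cdh1 cKO uteri. All 3 Trp53 cKO uteri, 2 of 3 double cKO uteri, 0 of 3 Cdh1 cKO uteri and 1 of 3 control uteri were among the high arrays. The score averaged 10.80 ± 0.15 in Trp53 cKO, 10.01 ± 1.28 in double cKO, 9.33 ± 0.76 in Cdh1 cKO and 10.11 ± 0.72 in control uteri (SD, n = 3 each). Differences between genotypes held 37.0% of the sum of squares of the score, against a median of 29.2% over the other 12190 genes. Over all 12 arrays, most of the spread of the score therefore lay among uteri of the same genotype. The uterus farthest from its group mean was double cKO replicate 1, at -1.46. The share was not computed without that library, so the statement holds only with it included.

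**Figure D1:**
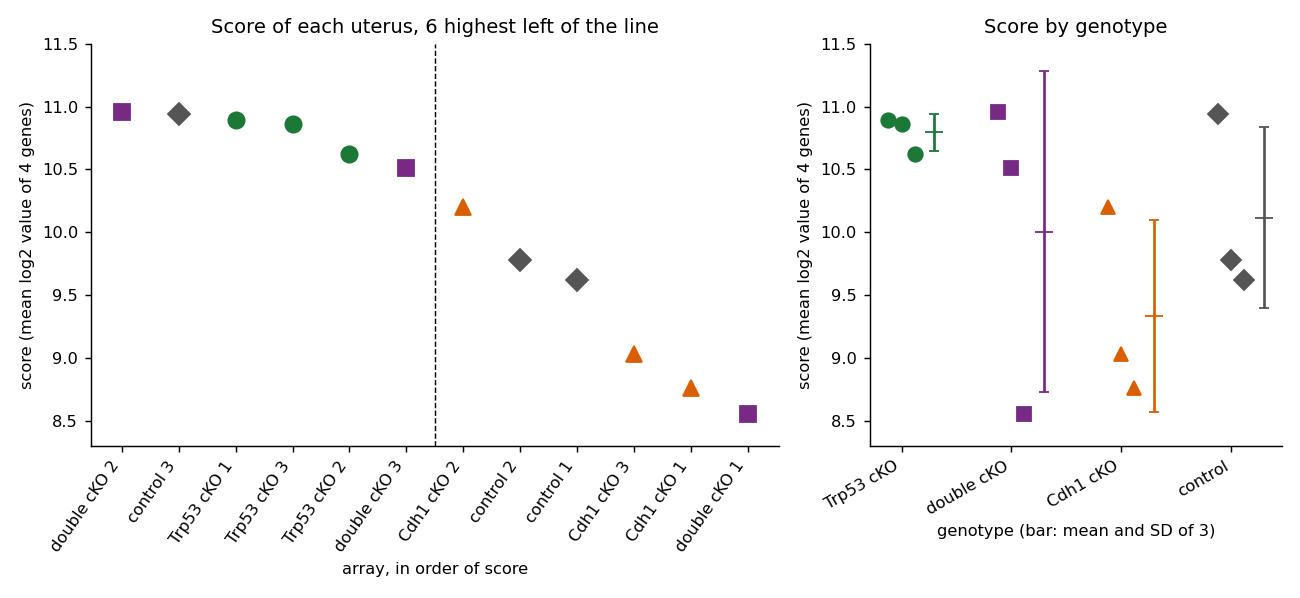
Score of each uterus in order (left, log2 scale, the 6 highest left of the dashed line) and by genotype (right, points for uteri, bars for the mean and SD of 3). The 3 Trp53 cKO uteri lie between 10.63 and 10.89, whereas the double cKO uteri include both the highest score, 10.96, and the lowest, 8.55.

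The library labelled double cKO replicate 1, which had the lowest score, stood apart from its group. Its log2 level of Cdh1 was 9.67, against 8.18 and 7.36 in double cKO replicates 2 and 3. Its level of Ovgp1, a secreted glycoprotein made by the oviduct, was 13.20, against 5.43 and 5.79 in those uteri. Controls had 9.41 to 10.08 for Cdh1 and 10.39 to 11.95 for Ovgp1. Levels of Ovgp1 were 7.34 to 7.61 in the Cdh1 cKO libraries and 8.46 to 11.00 in the Trp53 cKO libraries. The Cdh1 cKO libraries had 9.58 to 9.98 for Cdh1, which lies within the range of the controls, and the Trp53 cKO libraries had 9.04 to 9.26, below every control. Levels of Cdh1 thus did not follow the labels for these 2 genotypes, and whether this probe reads a deleted part is not stated. Counts over all genes, over the gene lists and over the families are given below with the library labelled double cKO replicate 1, and without it for the counts that changed and for several medians. Markers of the labelled tissue were present on all 12 arrays: the estrogen receptor Esr1 lay between 9.01 and 10.09, the epithelial keratin Krt8 between 12.13 and 13.30, and the muscle actin Acta2 between 14.55 and 14.94 on the log2 scale. Each array had 20075 to 21670 detected probes of 45281, with a median intensity of 106 to 119 and a median of 41 to 43 beads per probe.

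Top2a, the topoisomerase that untangles DNA before chromosomes separate, had its lowest, median and highest log2 values at 10.09, 10.65 and 10.79 in the high arrays and at 7.74, 8.61 and 9.92 in the low arrays. For Cdk1, the kinase that drives entry into mitosis, these values were 9.76, 10.24 and 10.34 in the high arrays and 7.97, 8.54 and 9.08 in the low arrays. Birc5, or survivin, a subunit of the chromosomal passenger complex, stood at 10.05, 10.65 and 10.79 in the high arrays and at 7.98, 9.03 and 9.94 in the low arrays. None of these 3 genes overlapped between high and low arrays, with differences of 1.83, 1.61 and 1.64 on the log2 scale. Mcm4, a subunit of the replicative helicase, had 11.72 to 12.15 in the high arrays against 10.51 to 11.86 in the low arrays, with a mean of 11.96 in the high arrays and 11.14 in the low arrays. Its difference, 0.82, was smaller, and Cdh1 cKO replicate 2 reached into the range of the high arrays. Each of the 4 genes had an r between 0.93 and 0.99 with the mean of the other 3, and between 0.96 and 0.99 with genotype means taken out. The probe used for each score gene was detected on all 12 arrays. The other probes of Cdk1 were detected on 0 arrays, those of Mcm4 on 6 and 5, those of Top2a on 11 and 5, and those of Birc5 on all 12.

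Promoters of score genes are shown because motifs known from cell cycle promoters can be read in them. The sequences are the 250 bases before the annotated start, from RefSeq on build GRCm38.p6, 5′ to 3′ along the gene. Cdk1 lies at chr10:69352913-69353162 on the minus strand, Top2a at chr11:99024190-99024439 on the minus strand and Birc5 at chr11:117848987-117849236 on the plus strand. Rpa2, a subunit of the protein that binds unwound DNA, lies at chr4:132768110-132768359 on the plus strand and is shown as the replication gene with the highest r among those with an E2F motif before the start. The table held no promoter for Mcm4. Capitals mark TTTGAA, the cell cycle homology region (CHR) bound by DREAM and MYB complexes, CCAAT, the box bound by NF-Y, and GCGGGAA, a form of the E2F motif, each searched on both strands.
Cdk1: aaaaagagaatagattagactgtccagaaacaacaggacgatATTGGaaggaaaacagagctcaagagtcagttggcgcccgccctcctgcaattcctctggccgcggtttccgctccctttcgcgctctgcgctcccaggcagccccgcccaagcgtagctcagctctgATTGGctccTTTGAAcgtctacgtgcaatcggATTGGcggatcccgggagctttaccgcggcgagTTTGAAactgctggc
Top2a: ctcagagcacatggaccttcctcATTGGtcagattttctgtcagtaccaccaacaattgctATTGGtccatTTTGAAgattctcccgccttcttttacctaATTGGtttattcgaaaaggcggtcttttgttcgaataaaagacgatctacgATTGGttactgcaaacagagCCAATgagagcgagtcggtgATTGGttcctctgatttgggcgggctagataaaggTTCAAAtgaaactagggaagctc
Birc5: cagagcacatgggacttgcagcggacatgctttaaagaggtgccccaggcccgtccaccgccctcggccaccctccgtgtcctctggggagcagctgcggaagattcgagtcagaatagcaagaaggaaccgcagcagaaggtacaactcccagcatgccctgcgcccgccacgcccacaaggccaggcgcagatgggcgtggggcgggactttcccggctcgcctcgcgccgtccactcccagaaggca
Rpa2: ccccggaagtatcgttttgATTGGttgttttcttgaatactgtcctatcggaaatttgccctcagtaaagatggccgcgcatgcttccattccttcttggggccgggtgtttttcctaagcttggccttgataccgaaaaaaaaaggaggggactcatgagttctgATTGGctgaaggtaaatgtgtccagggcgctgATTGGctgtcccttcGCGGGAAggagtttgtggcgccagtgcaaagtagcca
Cdk1 held 2 CHR motifs, the nearer starting 15 bases before the start, and 3 CCAAT boxes. Top2a held 2 CHR motifs, at 179 and 23 bases, and 6 CCAAT boxes. Birc5 held none of the 3 motifs in this window, and Rpa2 held an E2F motif at 37 bases and 3 CCAAT boxes. These are matches of letters, not mapped sites.

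Beyond the score genes, 301 of 12190 genes had a Pearson r of at least 0.8 with the score over 12 arrays, which is 2.47%, and 31 had an r of -0.8 or less, which is 0.254%. Genes that went with the score thus far outnumbered those that went against it. Without the library labelled double cKO replicate 1 the counts were 275 and 26, and with any of the other arrays left out they were 298 to 471 and 32 to 66. Without Cdh1 cKO replicate 1 they were 471 and 59. The count of genes that went against the score was also more than 1.5 times as large without Trp53 cKO replicate 2, at 63, and without control replicate 1 or 2, at 66 and 54. Of the 301 genes, 262 were detected on all 12 arrays.

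Of the 301 genes that went with the score 134 were in lists of cell cycle genes, described below by their role. Among the 12 highest in r, Troap, a spindle and centrosome protein, Kifc1, a kinesin that gathers spindle poles, Kif2c, a kinesin that takes tubulin off microtubule ends, and Cdca2, which brings a phosphatase to chromosomes at mitotic exit, each had an r of 0.99. Kif22, Tyms, Plk1, Sapcd2 and Kif11 also stood at 0.99, and Spag5, Incenp and Kif4 at 0.98. With each array left out in turn the lowest r of these 12 genes was 0.979, that of Kif4, and without the 2 arrays farthest from the median score they kept 0.97 to 0.99. Spearman's rho for them was 0.88 to 0.98. Of these 12, Incenp alone overlapped between high and low arrays, with 8.92 as its lowest high value and 8.93 as its highest low value.

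Among genes with no overlap, 72 of 12190 (0.591%) were at least 1 log2 unit higher in the high arrays and 1 (0.0082%), Sectm1b, was at least 1 lower. Of the 72 genes, 52 were in the lists of cell cycle genes, and the 8 with the largest differences are named here. Sapcd2, which orients the spindle, had 7.77, 8.43 and 8.52 as lowest, median and highest log2 values in the high arrays, against 5.53, 6.39 and 7.27 in the low arrays, a difference of 1.96. Plk1, the polo-like kinase of mitotic entry and exit, had 9.48, 10.21 and 10.23 in the high arrays against 7.33, 8.24 and 9.23 in the low arrays, a difference of 1.92. In the high arrays Plk1 was nearly flat apart from double cKO replicate 3. The next differences were 1.80 for Cdca3, a mitotic entry factor, 1.76 for Shcbp1, which acts in cytokinesis, 1.73 for the chromokinesin Kif4, 1.70 for Cdca2 and 1.69 each for Nusap1 and Aurka. The count of 73 genes in both directions was 67 without the library labelled double cKO replicate 1 and became 121 when Cdh1 cKO replicate 2, the array just outside the high group, was left out.

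**Figure D2:**
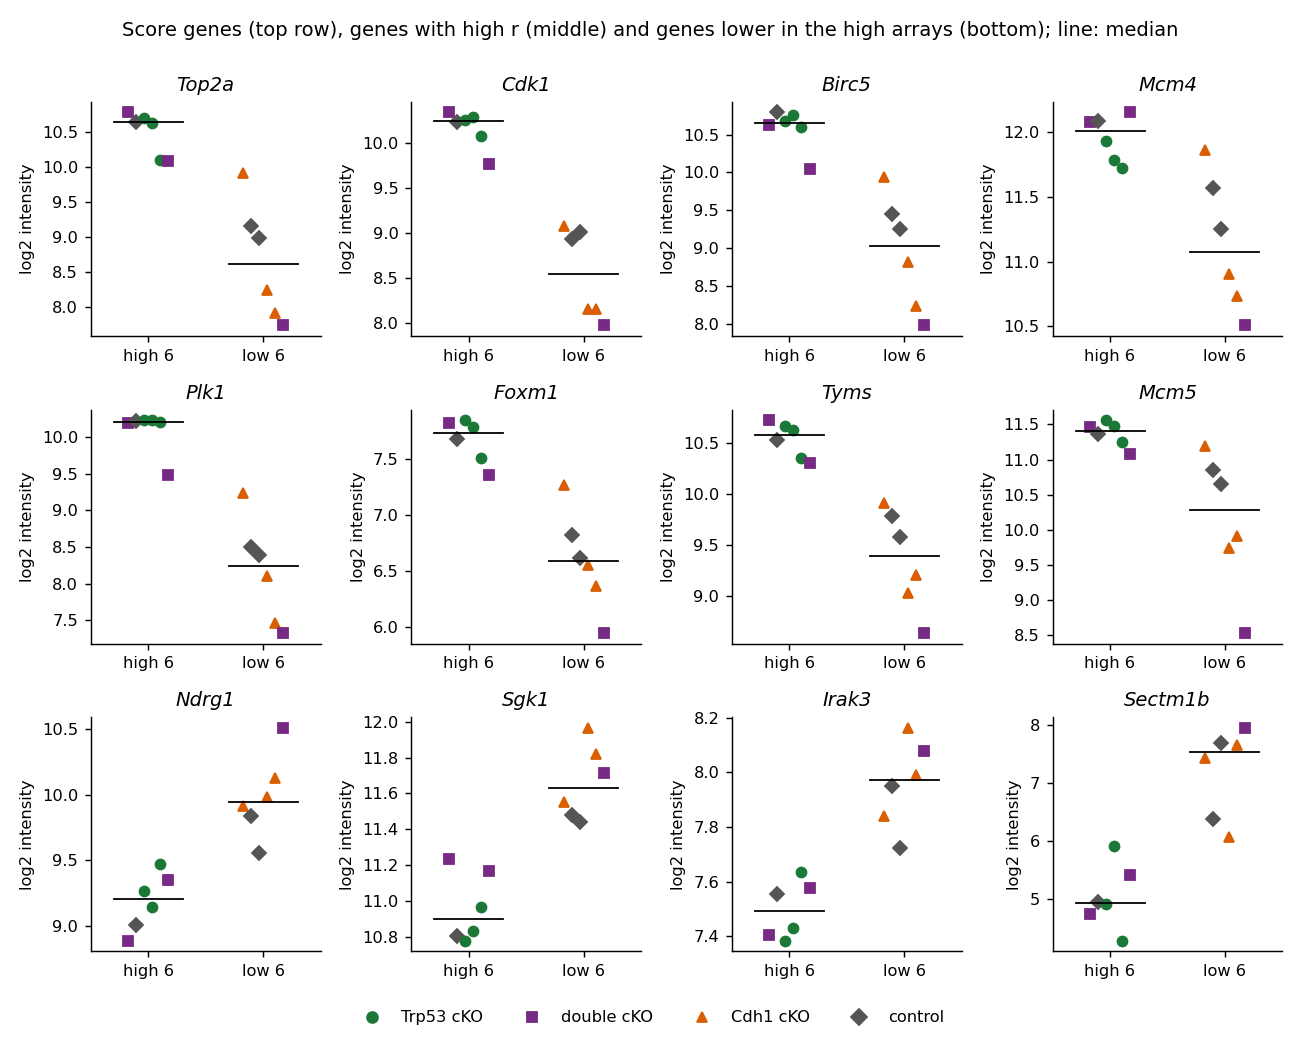
Log2 intensity in the 6 high and 6 low arrays for the score genes (top), genes with a high r (middle) and genes lower in the high arrays (bottom), with symbols for genotype and a line at each median. Of the genes drawn only Mcm4 and Mcm5 overlap between high and low arrays, and in the low arrays double cKO replicate 1 has the lowest value of every gene in the top and middle rows.

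The genes of the cell cycle were then read by their role, from 10 lists with 236 entries, of which 226 had a probe and 193 besides the score genes passed the detection filter. Of these 193 genes, 134 had an r of at least 0.8 and 0 an r of -0.8 or less, with a median r of 0.90, against 0.03 over all 12190 genes. The median difference between high and low arrays was 0.90 on the log2 scale, and 186 of 193 differences were above 0. The 193 are not all entries of the lists, and 148 of them were detected on every array. Without the library labelled double cKO replicate 1, 132 of 193 had an r of at least 0.8, and the count of each list moved by 2 genes or fewer.

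Replication genes followed the score closely. In the list of origin licensing and the replication fork 28 of 34 genes had an r of at least 0.8, and all 34 had an r above 0. Mcm3, a helicase subunit, had 8.68, 8.89 and 9.19 in the high arrays against 6.26, 7.63 and 8.50 in the low arrays. Mcm10, which starts the helicase, and Fen1, the nuclease that trims Okazaki fragments, each had an r of 0.97. Mcm5, the brightest gene of the list, had 11.08, 11.41 and 11.56 in the high arrays and 8.53, 10.28 and 11.19 in the low arrays, so that the ranges met. Among genes of nucleotide supply only 4 of 15 reached 0.8: Tyms, which makes thymidylate, Tk1, thymidine kinase, Rrm1, a ribonucleotide reductase subunit, and Dut, which removes dUTP. Ctps, the brightest gene of that list and the enzyme that makes CTP, had an r of 0.42. For assembly and upkeep of chromatin 14 of 16 genes reached 0.8, among them Chaf1a, a histone chaperone at the fork, with 0.97, and Dnmt1, the maintenance methyltransferase, with 0.95.

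Genes listed as regulators of the step into S phase were divided. The list includes Foxm1 and Mybl2, whose complexes turn on the genes of mitosis. In that list 9 of 20 genes had an r of at least 0.8, led by the transcription factors Foxm1 with 0.98, Mybl2 with 0.95 and E2f1 with 0.92 and by the cyclin Ccne1 with 0.93. Foxm1 had 7.36, 7.73 and 7.85 in the high arrays and 5.95, 6.58 and 7.27 in the low arrays, with no overlap. Ccnd1, the growth-signal cyclin and the brightest gene of the list, had 12.23, 12.36 and 12.91 in the high arrays against 11.60, 11.97 and 12.84 in the low arrays, and its r was 0.38. The other E2F factors of the list had lower values, with E2f2 at 0.79, E2f7 at 0.55 and E2f3 at 0.38. Cdk4 and Cdk6, the kinases that partner Ccnd1, had 0.68 and 0.22. The mean log2 level of E2f7 lay below the median probe level of the arrays, and that of Cdk6 lay not far above it. At such weak signal a low r cannot show that E2f7 or Cdk6 departed from the score. The count was 7 of 20 without the library labelled double cKO replicate 1, as Skp2 and Tfdp1 fell short of 0.8.

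Most lists of mitosis had high counts. Of the kinases and cyclins of G2 and M, 13 of 15 genes reached 0.8, including the histone kinase Haspin, the passenger kinase Aurkb and Pbk, a mitotic kinase, each with 0.98. Pbk had 10.08, 10.92 and 11.09 in the high arrays and 7.59, 8.96 and 10.29 in the low arrays, so that the ranges overlapped. Of the kinetochore and centromere genes 19 of 25 reached 0.8, and Cenpa, the centromeric histone and the brightest of them, had 11.95, 12.07 and 12.19 in the high arrays against 10.25, 10.70 and 11.04 in the low arrays. Spindle and cytokinesis genes counted 22 of 28, and condensin, cohesin and chromosome structure genes 10 of 12. Tuba1b, a tubulin and the brightest of the spindle list, had a lower r of 0.76. Some well-measured genes of these lists did not follow the score. Kif23 and Zwint, with mean log2 levels of 10.50 and 10.94, had an r of -0.23 and -0.15. Hjurp and Mad2l1 had 0.65 and 0.62. For the anaphase promoting complex the count was 3 of 9, made up of its activator Cdc20, the separase Espl1 and Cdca3, which the complex marks for degradation, whereas the interphase activator Fzr1 had 0.76. DNA damage and homologous repair genes counted 12 of 19, with Parpbp at 0.97 and Blm and Fancd2 at 0.96.

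The motifs were counted in the promoters of these lists as a description. The CHR motif stood in the 300 bases around the start, 250 before and 50 after it, in 19 of 24 spindle and cytokinesis genes with a promoter in the table (79.2%) in 6 of 10 G2 and M kinases and cyclins and in 6 of 12 chromatin assembly genes. In the licensing and fork list it stood in 7 of 27 genes (25.9%), and it stood in 20.2% of all 27025 genes of the table and 14.5% of the 9799 measured genes matched to it. The E2F motif stood in 11 of 27 licensing and fork genes (40.7%) and 7 of 16 repair genes (43.8%), in 0 of 24 spindle genes, in 6 of 22 kinetochore and centromere genes (27.3%), in 2 of 15 nucleotide supply genes (13.3%), in 5.29% of all genes of the table and in 9.26% of the measured genes. Of the 301 genes that went with the score 252 had a promoter, and 34.1% held a CHR motif, 60.3% a CCAAT box and 22.2% an E2F motif. Of the 29 matched genes that went against the score, 17.2%, 31.0% and 3.45% held these motifs. The CCAAT box stood in 41.1% of all genes of the table and in 42.5% of the measured genes.

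**Figure D3:**
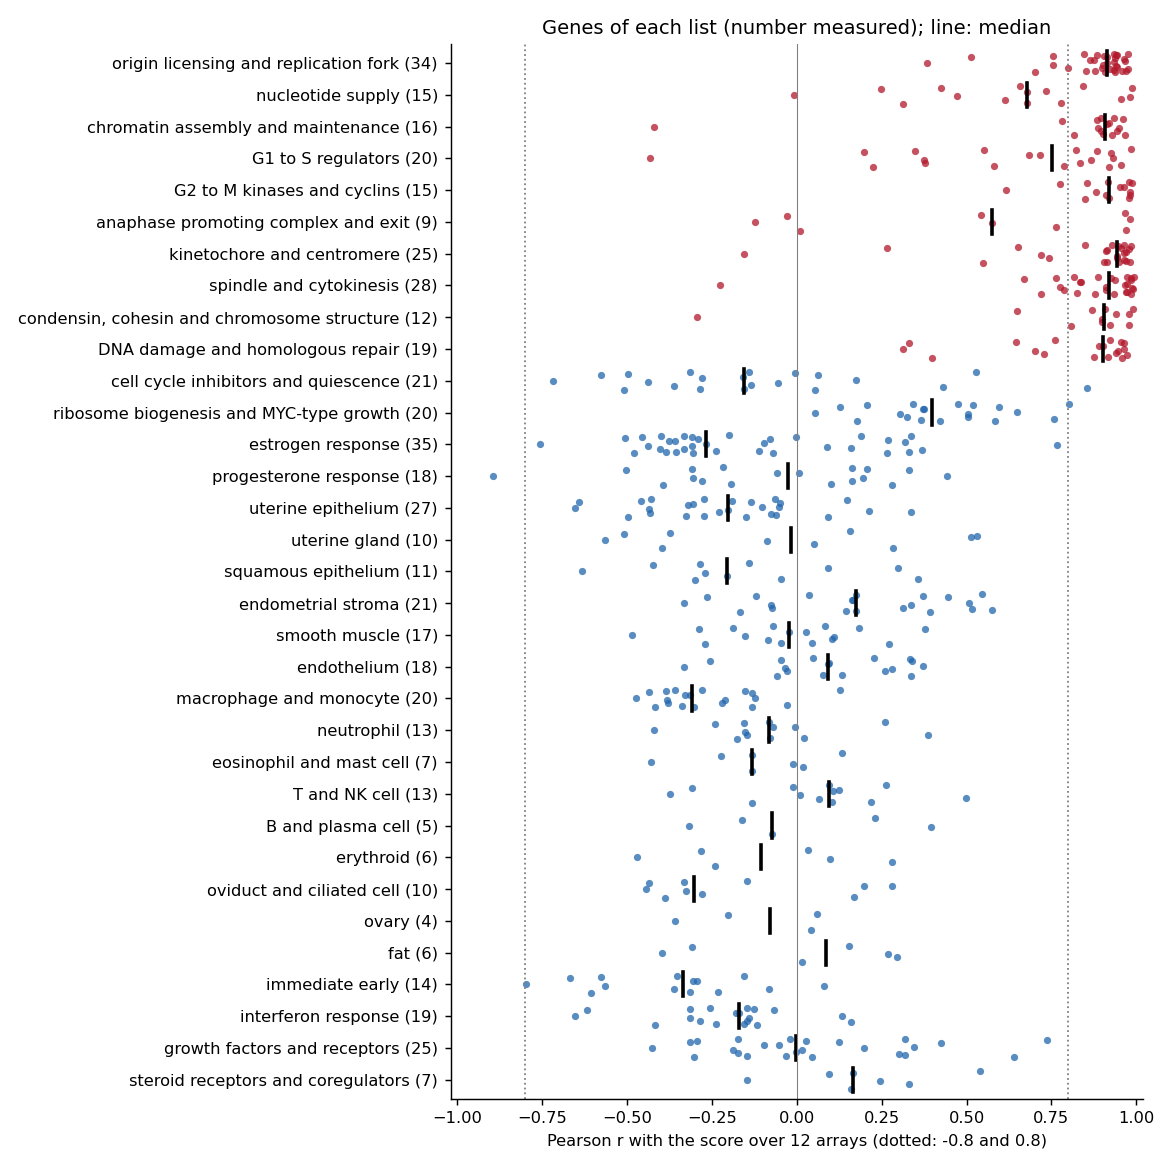
Pearson r with the score over 12 arrays for each measured gene of the 33 lists (points, red for the 10 cell cycle lists and blue for the others), with a line at each median and dotted lines at -0.8 and 0.8. The cell cycle lists have medians between 0.58 and 0.94, and the other lists between -0.33 and 0.40.

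Genes that restrain the cycle mostly had an r below 0. Of 21 inhibitors and genes of quiescence 6 had an r above 0, against 6477 of all 12190 genes, and the median r was -0.15. The median of the 21 genes in each array, taken as deviations from each gene's mean, had an r of -0.71 with the score and of -0.60 with genotype means taken out. One gene reached 0.8, Cdkn2d, an inhibitor of CDK4 and CDK6, with 0.86. Ccng1, a p53 target, had 9.52, 9.79 and 10.17 in the high arrays against 10.06, 10.50 and 11.07 in the low arrays, with an r of -0.72, and of -0.92 without the library labelled double cKO replicate 1. Cdkn1a, which encodes the CDK inhibitor p21 and is also a p53 target, had 6.56, 8.08 and 8.43 in the high arrays against 6.97, 9.18 and 10.54 in the low arrays, with an r of -0.58. Both ranges overlapped, and the high arrays include all Trp53 cKO uteri, so that genotype and score cannot be told apart for p53 targets in this division. With genotype means taken out the r of Cdkn1a was -0.38 and that of Ccng1 -0.73.

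Growth genes went with the score weakly. All 20 genes of ribosome biogenesis and MYC-type growth had an r above 0, with a median of 0.40, and 1 reached 0.8, Nop58, a nucleolar protein of ribosomal RNA processing, with 0.80. None reached it without the library labelled double cKO replicate 1, and the median was then 0.18. Npm1, the brightest of them, differed by 0.11 between high and low arrays.

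Hormone response genes also lay on both sides of 0. Of 35 estrogen response genes 0 reached an r of 0.8 in either direction, and the median was -0.27. Wnt7a, a Wnt ligand of the luminal epithelium, came nearest with 0.77, with 9.15, 10.91 and 11.48 in the high arrays and 7.58, 9.43 and 11.06 in the low arrays. Aqp8, a water channel, was opposite with -0.76, with 4.73, 5.68 and 6.07 in the high arrays and 5.87, 7.57 and 11.54 in the low arrays. Of 18 progesterone response genes 1 reached the threshold, Sgk1, with -0.89. Esr1 itself had 9.01, 9.78 and 10.09 in the high arrays against 9.29, 9.75 and 10.01 in the low arrays, and its r was 0.09. Among 25 growth factors and receptors 0 reached 0.8, and Fgf18 came nearest with 0.74. With genotype means taken out Egfr, the receptor of epidermal growth factor, had -0.87, against -0.30 over the 12 arrays. When the library labelled double cKO replicate 1 was left out, 3 further genes of these lists passed the threshold, Wnt7a with 0.83, Aqp8 with -0.89 and Egf, the growth factor itself, with 0.81, and the medians were -0.17 for estrogen response and -0.23 for progesterone response genes.

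Markers of the cell types that a uterus holds did not separate the high from the low arrays in the way the cell cycle genes did. The median r was -0.20 for 27 uterine epithelium genes, -0.02 for 10 gland genes, 0.17 for 21 stroma genes, -0.02 for 17 smooth muscle genes and 0.09 for 18 endothelium genes. For 20 macrophage genes it was -0.31, with Mrc1, the mannose receptor, lowest at -0.47. For 10 oviduct and ciliated cell genes it was -0.30, and for 14 immediate early genes, which answer stress and handling within minutes, -0.33. Dusp1, a phosphatase of that list, had the most negative r there, -0.799, with 9.31, 9.60 and 10.08 in the high arrays and 9.51, 10.20 and 10.59 in the low arrays. None of the genes of the 15 cell type lists reached 0.8 in either direction. When the library labelled double cKO replicate 1 was left out, the medians were -0.05 for macrophage genes, -0.01 for oviduct genes and -0.30 for immediate early genes, and Sbsn, of the squamous epithelium list, passed the threshold with -0.81. With all 12 arrays and genotype means taken out, the medians were -0.34 for macrophage, -0.35 for oviduct and -0.24 for immediate early genes. The median of the oviduct genes in each array had an r of -0.24 with the score, and of -0.66 with genotype means taken out. For macrophage genes these were -0.33 and -0.50. Ovgp1 had -0.28, and -0.79 with genotype means taken out, and its highest level, 13.20, was in double cKO replicate 1. The part of the macrophage, oviduct and immediate early genes in the results was not tested. In whole tissue, more dividing cells and more RNA of these genes per dividing cell cannot be told apart.

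The genes that went against the score were of mixed function. Ndrg1, a stress-inducible gene, had 8.89, 9.21 and 9.47 in the high arrays and 9.56, 9.95 and 10.51 in the low arrays, with an r of -0.92 and a rho of -0.96. Irak3, which damps Toll-like receptor signalling, had 7.38, 7.49 and 7.64 in the high arrays and 7.72, 7.97 and 8.16 in the low arrays, and its r was -0.92. Sgk1, a kinase of salt transport, had 10.78, 10.90 and 11.24 in the high arrays and 11.44, 11.63 and 11.97 in the low arrays. None of these 3 genes overlapped, and without the 2 arrays farthest from the median score their r was -0.85, -0.92 and -0.90. With genotype means taken out Ndrg1 had -0.90 and Irak3 -0.88, and without the library labelled double cKO replicate 1 these were -0.74 and -0.73. The chloride channel gene Clcn2 had an r of -0.87, Svopl -0.86 and the elongation factor Ell -0.85, and these 3 fell short of the threshold without those 2 arrays, at -0.74 each. Sectm1b, an immune ligand, had the most negative difference among genes without overlap, -2.17, with 4.27, 4.92 and 5.92 in the high arrays and 6.07, 7.55 and 7.96 in the low arrays. It was detected on 4 of the 6 high arrays and on all 6 low arrays. Further genes without overlap were Sh3gl3, Man2b2 and Acaa1b, lower in the high arrays by 0.54 to 0.68, of which Acaa1b was detected on 1 high array.

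Histone genes, a family chosen for description after its values had been seen, had r of both signs. Histones of this kind are made mainly in S phase, to package new DNA. Of 14 core H2A genes 10 had an r between 0.92 and 0.98, and H2ac15 had 12.36, 12.96 and 13.27 in the high arrays against 10.62, 11.47 and 12.21 in the low arrays. H2ac18 and H2ac19 had the opposite sign, with r of -0.86 and -0.84, and without the library labelled double cKO replicate 1 these were -0.81 and -0.79. H2ac18 had 8.80, 9.45 and 9.56 in the high arrays against 9.70, 10.03 and 10.56 in the low arrays. A further probe of H2ac20, itself at 0.96, had an r of -0.85, and the other probes of H2ac18 ranged from -0.83 to 0.33. None of 11 H2B genes and none of 21 H3 and H4 genes reached 0.8 in either direction. The H2B genes lay between -0.23 and 0.26 and the H3 and H4 genes between -0.63 and 0.78. H2A genes are near-identical copies, so that probes may share signal, and the 10 values are not 10 independent measurements.

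Other families were looked at in the same way. Of 16 nucleoporin genes 7 had an r of at least 0.8 and all 16 were above 0, with Nup43 at 0.91. Of 17 hnRNP genes, whose proteins bind RNA, 3 reached 0.8. The counts were 5 of 16 and 2 of 17 without the library labelled double cKO replicate 1. Of 10 Srsf splicing factor genes 2 reached 0.8. Of 31 kinesin genes 10 reached 0.8, whereas their median was 0.09. Ribosomal protein genes had medians of 0.01 for 34 large subunit genes and 0.05 for 21 small subunit genes. Rpl24 had an r of -0.82, and of -0.77 without the library labelled double cKO replicate 1. With genotype means taken out 4 of the 34 and 1 of the 21 had an r of -0.8 or less, against 104 of all 12190 genes (0.853%), and Rpl24 stood at -0.90.

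**Figure D4:**
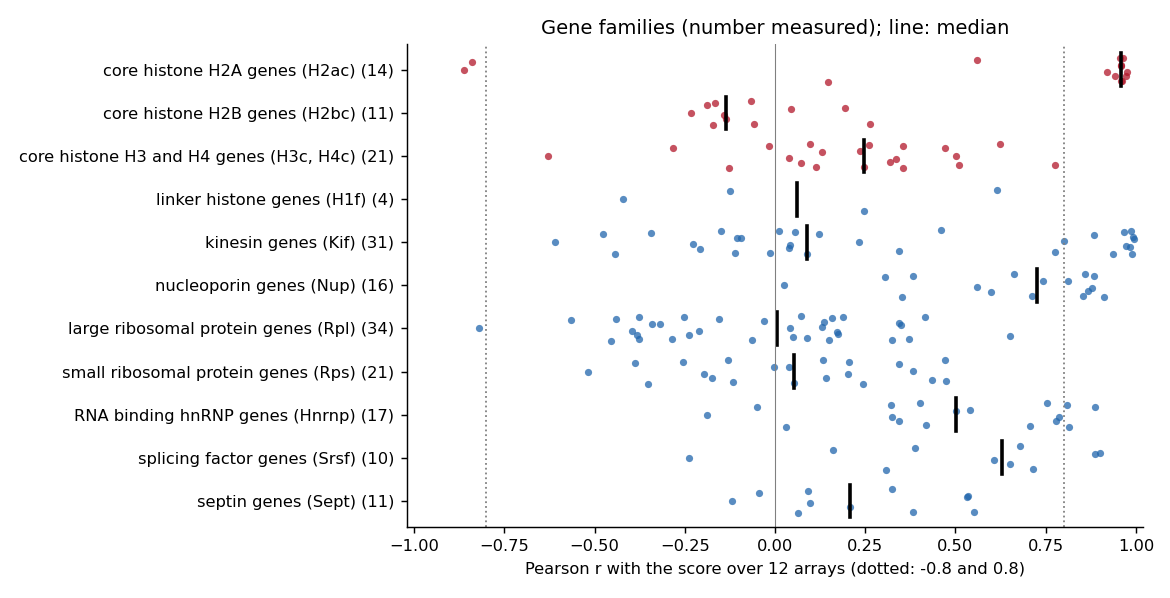
Pearson r with the score over 12 arrays for genes of 11 families picked by symbol (points, red for core histones and blue for others), with a line at each median and dotted lines at -0.8 and 0.8. The H2A genes lie at both ends, from -0.86 to 0.98, while the H2B genes lie between -0.23 and 0.26.

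Since the high arrays hold unequal numbers of each genotype, the group means were taken out of every gene and of the score, and the correlation was computed over the 12 deviations. After this step 424 of 12190 genes (3.48%) had an r of at least 0.8 and 104 (0.853%) an r of -0.8 or less. The 12 deviations have fewer degrees of freedom than the 12 arrays, so any gene reaches 0.8 more easily. The larger counts therefore do not show that more genes followed the score within genotypes. Of the 301 genes that went with the score before, 273 did so after, and of the 31 that went against it, 21. Of the 193 cell cycle genes 136 reached 0.8, with a median r of 0.90. The association of cell cycle genes with the score was thus present among uteri of the same genotype, pooled over the 4 genotypes. Deviations of the score ran from -1.46 to 0.95 in double cKO but only from -0.17 to 0.10 in Trp53 cKO uteri. The Trp53 cKO uteri thus added little to this r, and it was not computed for each genotype alone. Without the library labelled double cKO replicate 1 the counts were 362 and 181 over all genes and 108 of 193 cell cycle genes, whose median r was 0.84. The total of 528 genes in both directions became 969 without Cdh1 cKO replicate 1 and 806 without control replicate 3. The 104 genes with a negative r became 264 without control replicate 3, 244, 209 and 196 without Cdh1 cKO replicates 1, 2 and 3, 164 and 157 without Trp53 cKO replicates 2 and 3, and 157 without control replicate 2.

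Pbk, Foxm1, Kifc1, Troap, Sapcd2, Kif2c, Aurkb, Plk1, Tk1, Spag5, Kif22 and Chtf18, a loader of the replication clamp, had the highest r after this step, each at least 0.98. The lowest were Trak1, which ties mitochondria to kinesin, with -0.99, Pex3, of peroxisome assembly, and Art3 with -0.95 each, Timm8b, of mitochondrial import, with -0.94, and Cited4, a coregulator, and Syap1 with -0.93 each. Pex3 had shown an r of -0.04 before, and its values were 8.38 to 8.71 in the high arrays and 8.16 to 8.82 in the low arrays. Trak1 had overlapping ranges, 8.23 to 8.63 in the high arrays and 8.28 to 9.25 in the low arrays. Cited4 had the widest values of these, 6.97 to 9.62 in the high arrays and 8.60 to 10.74 in the low arrays.

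**Figure D5:**
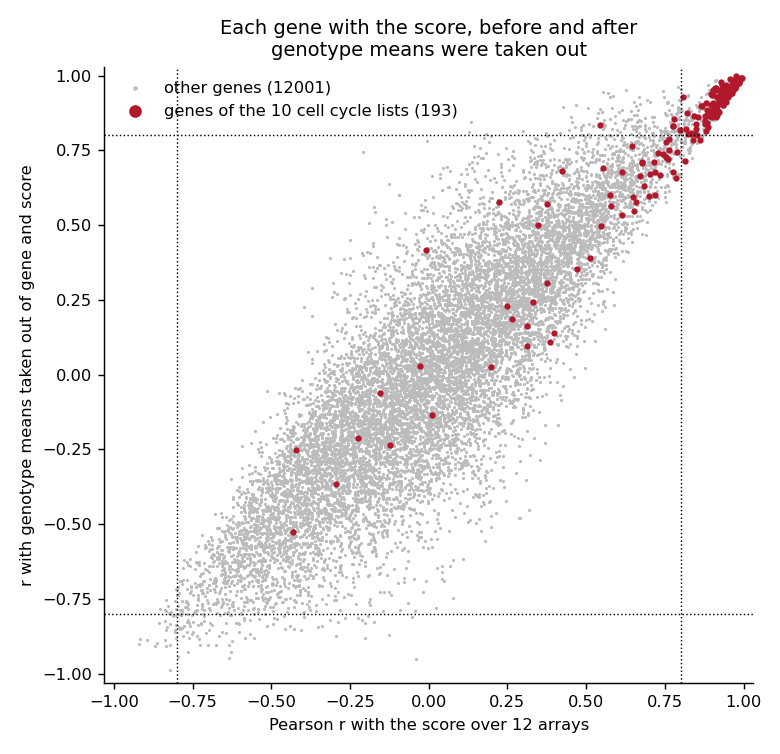
Pearson r of each gene with the score over 12 arrays (x axis) and after genotype means were taken out of gene and score (y axis), for 193 cell cycle genes (red) and all other genes (grey), with dotted lines at -0.8 and 0.8. Most red points lie in the upper right corner, where 136 cell cycle genes pass 0.8 on the y axis and 134 on the x axis.

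Genotypes were compared over uteri, which is the test the design allows, in a limma model of all 12 arrays with p-values adjusted by the Benjamini-Hochberg method over 12194 genes. A call means an adjusted p below 0.05. Trp53 cKO against control gave 2 called genes (0.0164%), Cdh1 cKO against control 1 (0.0082%), double cKO against control 333 (2.73%) and Trp53 cKO against Cdh1 cKO 2 (0.0164%). The model shared 1 estimate of the spread over the 4 genotypes, whose score SD ran from 0.15 in Trp53 cKO to 1.28 in double cKO uteri. With this shared spread, none of the 193 cell cycle genes was called in limma in any of the 4 comparisons. Their counts at an unadjusted p below 0.05 are given with each comparison below. The counts of called genes changed with single uteri. The 333 genes became 194 and 137 without double cKO replicates 1 and 3 and 141, 117 and 553 without control replicates 1, 2 and 3. In Trp53 cKO against control the count was 9 without control replicate 3, and in Trp53 cKO against Cdh1 cKO it was 7 without Cdh1 cKO replicate 2. In Cdh1 cKO against control it was 2, 11 and 0 without Cdh1 cKO replicates 1, 2 and 3, and 0, 0 and 38 without control replicates 1, 2 and 3.

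Trp53 cKO and Cdh1 cKO uteri were set side by side because they had the highest and the lowest mean score, so that the differences of score genes and cell cycle genes between them are a description, and nothing is read from their p-values. The difference of Trp53 cKO minus Cdh1 cKO was 1.75 ± 0.55 log2 units for Cdk1, 1.79 ± 0.76 for Top2a, 1.68 ± 0.66 for Birc5 and 0.65 ± 0.43 for Mcm4 (SE from limma). The median difference over the 193 cell cycle genes was 0.90, against 0.01 over all genes, and 181 of 193 were above 0, against 6378 of all 12194. The unadjusted p was below 0.05 for 83 of the 193 genes and for 726 of all 12194 genes in limma. The first count carries no support, since the groups were picked by the score that these genes follow. Plk1 stood at 1.96 ± 0.72 and Sgk1 at -0.92 ± 0.22.

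The p53 targets were compared with control as well. Cdkn1a stood at -2.25 ± 0.47 in Trp53 cKO minus Cdh1 cKO uteri (SE). Against control it stood at 0.37 ± 0.47 in Trp53 cKO (adjusted p = 0.9995 in limma) and at 2.62 ± 0.47 in Cdh1 cKO (adjusted p = 0.164 in limma), so that the mean of the Trp53 cKO uteri did not lie below that of the controls. Ccng1 stood at -1.07 ± 0.22 in Trp53 cKO minus Cdh1 cKO uteri. Against control Ccng1 stood at -0.51 ± 0.22 in Trp53 cKO (adjusted p = 0.9995 in limma) and at 0.56 ± 0.22 in Cdh1 cKO (adjusted p = 0.501 in limma).

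Against control, the median difference over the 193 cell cycle genes was 0.48 in Trp53 cKO, with 180 above 0, and -0.47 in Cdh1 cKO, with 19 above 0, and these comparisons share the control uteri. Over all 12194 genes the medians were -0.01 and -0.03, with 5967 and 5662 above 0. The 193 genes mostly rise and fall together with the score, so the counts above 0 are not of independent genes. In double cKO against control the median of the 193 genes was -0.07, and 6 of 193 had an unadjusted p below 0.05 in limma, against 2082 of all 12194 genes. These counts were 8 of 193 against 290 of 12194 in Trp53 cKO and 9 of 193 against 1070 of 12194 in Cdh1 cKO. Top2a, given without a test since it is part of the score, stood at -0.06 ± 0.76 in double cKO against control (SE). Without the library labelled double cKO replicate 1 the difference was 0.83, and without control replicate 3 it was 0.46, so that its sign rested on these uteri. The interaction of both ablations in Top2a was -0.04 ± 1.08 (SE).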

How the data were processed

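Per the file headers, the authors deposited for each probe and array an intensity that is not normalized, its detection p-value, the count of beads behind it and a standard error over beads. The last of these, 12 columns, was left aside. A second deposited table gives processed log2 values, whose making the sources used here do not state. It differed from the values computed here by at most 0.0234. The submitters' processing notes name limma.

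The score used the matrix. All other values are log2 intensities after background correction and quantile normalization with neqc of limma 3.58.1 in R 4.3.3 (offset 16), so levels are relative to the other genes of an array. Kept were probes of 1 gene symbol that were detected (p below 0.05) on 3 or more of 12 arrays, and the brightest probe stood for a gene, which gave 12194 genes. Correlations were computed in Python 3.11.15.

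The limma model had a coefficient per genotype, 8 residual degrees of freedom and a prior of 2.84, with 2-sided p-values. The steps were tested on simulated data. The labels do not say that replicate numbers pair arrays. Deviations from group means of same-numbered arrays correlated at 0.22, 0.33 and 0.30 in Cdh1 cKO against control. In the other comparisons they correlated at -0.65 to 0.09. Arrays with different numbers were not compared in this way, so these values do not show that arrays were paired. The number of arrays limits the precision.

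The score genes and gene lists were chosen with earlier results of these data known. Named genes were taken from the score genes and from the 12 highest and 8 lowest in r with and without genotype means. They were also taken from the 8 largest differences each way without overlap. For each list described, they came from up to 4 members with the largest r and the brightest member. Not every gene of these sets is named. Genes with clone names are not named. Egf, Egfr, Sbsn, Skp2, Tfdp1, Rpl24, E2f2, E2f3, E2f7, Cdk4, Cdk6, Kif23, Zwint, Hjurp and Mad2l1 were named after their values were seen.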

Additional observations from a re-analysis of the deposited data

How the results depend on the processing

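All 12 arrays stayed among the 6 high or 6 low arrays under the 7 other ways of computing the score. With each array left out in turn, the number of genes with an r of 0.8 or beyond in either direction was 301 to 530, with genotype means taken out 543 to 969, and the number without overlap and at least 1 apart 67 to 121. The highest counts came without Cdh1 cKO replicate 1, Cdh1 cKO replicate 1 and Cdh1 cKO replicate 2. Called genes numbered 2 to 9 in Trp53 cKO against control, 0 to 38 in Cdh1 cKO against control, 117 to 553 in double cKO against control and 2 to 7 in Trp53 cKO against Cdh1 cKO. With probes detected on all 12 arrays, which tests fewer genes, these counts were 0, 0, 199 and 0. With only the 6 arrays of the groups compared they were 1 for Trp53 cKO and 0 for Cdh1 cKO against control, and with no detection filter Cdh1 cKO against control gave 0. With the replicate block, double cKO against control gave 214 genes, 205 of them among the 333, and the cause was not tested. In Cdh1 cKO against control the 1 called gene was called with the block too. In double cKO against control the sign turned for Birc5, Cdk1, Mcm4 and Top2a, which ranged from -0.82 to 0.51, -0.53 to 0.66, -0.34 to 0.48 and -0.69 to 0.83 with 1 array left out. Without control replicate 3 they stood at 0.20, 0.39, 0.17 and 0.46, and without double cKO replicate 1 at 0.51, 0.66, 0.48 and 0.83. Mcm4 in Trp53 cKO against control ranged from -0.015, without control replicate 1, to 0.40. Over all alternatives run, 116 values of the main results stayed within 1.5 times of the reported one and 25 did not. The number of arrays, 3 per genotype, limits what the comparisons of genotypes can show.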
